A study of Mus musculus with 12 samples.

Results

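The DNA replication and cell division genes are a list of 59 genes that cells express while they copy their DNA and divide: 27 act in replication, 28 in mitosis and 4 in the control of entry into S phase. The list was set by gene name, with earlier results of these data known, and 52 of the 59 were measured, among 8267 named genes in all. These were 25 of the 27 replication genes, 26 of the 28 mitosis genes and 1 of the 4 G1/S genes, Ccne1. Mcm2, Ccnb1, Ccne2, E2f1 and Hmmr had no probe listed under a single symbol, Ccnd1 and Prim1 appeared on probes listing several genes, and these 7 genes were not analysed here.

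The cells were MECs, an endothelial line from the mouse embryo, either mock-treated or given BMP6, a bone morphogenetic protein that signals through SMAD proteins. RNA was profiled after 4, 12 or 24 h of BMP6, with 3 arrays for each time and 3 for the control, 12 arrays in all. The labels name neither a BMP6 dose nor a harvest time for control cells, and all arrays come from a single line. Each array carried Cy5-labelled RNA of the cells and Cy3-labelled universal mouse reference RNA, and a value is the log ratio of the channels, read here as log2 of cells over reference. Base and sign are not stated by the labels, so with the sign turned every "higher" below would read "lower". Values in order of replicate number are given as 3 numbers per group.

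Replication starts at origins, where the ORC complex, CDC6 and CDT1 load the MCM helicase in G1; CDC45 and GINS then complete the active helicase. Polymerases, the PCNA clamp, its RFC loader and DNA ligase copy the strands, fed by nucleotide enzymes such as ribonucleotide reductase. Cyclin B with CDK1 drives entry into mitosis, Aurora and Polo-like kinases and kinesins build the spindle, and the checkpoint proteins BUB1, BUBR1 and MAD2 hold anaphase until chromosomes are attached. In cycling cells the first group is transcribed mostly at G1/S under E2F factors, and the second in G2 and M through CCAAT boxes bound by NF-Y and the cell cycle genes homology region bound by the DREAM and MMB complexes. In a culture, fewer cells in a phase and less RNA per cell cannot be told apart.

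Promoters are shown because the replication and the mitosis members, reported apart here, hold these elements in different shares; the shares were not tested. RefSeq promoters (GRCm38.p6, from 250 bases before to 50 after the first listed start) were matched by gene identifier for 42 of the 52 members. These were 21 replication genes, 20 mitosis genes and Ccne1. That start is the outer end of the gene, as annotated on the same build, in 25 of the 42 and lies inside the gene in the other 17 (8 replication, 9 mitosis), by over 250 bases in 3, Cdc6, Orc1 and Aurka. Of the genes printed it lies 442 bases inside Cdc6, so that the whole window is within the gene, 228 bases inside Mcm7 and 73 bases inside Tk1, and every motif count and position below holds for this start only. The 250 bases before the start are printed for 3 replication and 3 mitosis genes, on the gene's strand. Capitals mark, on either strand, the box CCAAT, the homology region forms (TTTGAA or else TTTAAA) and the E2F-type forms (TTTGGCGC, or TTTCCCGC, or the shorter GCGGGAA). The TTTAAA form is its own reverse complement. The form GCGGGAA lies within the reverse complement of TTTCCCGC, so every match to TTTCCCGC is also a match to GCGGGAA.
Mcm7 (chr5:138171884-138172133, minus strand): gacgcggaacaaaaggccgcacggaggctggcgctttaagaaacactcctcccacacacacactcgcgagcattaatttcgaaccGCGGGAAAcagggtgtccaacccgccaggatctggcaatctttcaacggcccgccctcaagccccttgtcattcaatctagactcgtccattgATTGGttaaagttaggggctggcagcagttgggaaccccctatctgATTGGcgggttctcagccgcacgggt
Cdc6 (chr11:98907901-98908150, plus strand): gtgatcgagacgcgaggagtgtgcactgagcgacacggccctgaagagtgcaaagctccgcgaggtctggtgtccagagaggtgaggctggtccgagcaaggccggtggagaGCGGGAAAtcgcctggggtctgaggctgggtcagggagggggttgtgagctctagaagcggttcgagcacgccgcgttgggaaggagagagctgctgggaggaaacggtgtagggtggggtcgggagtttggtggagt
Tk1 (chr11:117826015-117826264, minus strand): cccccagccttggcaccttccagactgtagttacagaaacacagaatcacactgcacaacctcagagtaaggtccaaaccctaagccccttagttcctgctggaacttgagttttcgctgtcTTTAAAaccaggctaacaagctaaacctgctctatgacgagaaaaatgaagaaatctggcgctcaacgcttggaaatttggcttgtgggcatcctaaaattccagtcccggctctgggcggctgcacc
Ccnb2 (chr9:70421555-70421804, minus strand): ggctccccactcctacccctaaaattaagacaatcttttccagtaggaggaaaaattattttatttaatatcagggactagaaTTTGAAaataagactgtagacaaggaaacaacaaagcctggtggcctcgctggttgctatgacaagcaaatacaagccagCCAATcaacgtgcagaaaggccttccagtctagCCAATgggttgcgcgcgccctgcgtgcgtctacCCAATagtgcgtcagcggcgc
Cdk1 (chr10:69352913-69353162, minus strand): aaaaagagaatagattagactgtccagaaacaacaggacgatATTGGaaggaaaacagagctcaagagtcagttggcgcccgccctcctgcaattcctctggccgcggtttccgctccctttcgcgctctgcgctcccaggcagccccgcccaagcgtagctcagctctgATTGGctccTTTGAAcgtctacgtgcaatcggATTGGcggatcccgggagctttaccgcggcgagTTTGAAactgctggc
Kif11 (chr19:37376132-37376381, plus strand): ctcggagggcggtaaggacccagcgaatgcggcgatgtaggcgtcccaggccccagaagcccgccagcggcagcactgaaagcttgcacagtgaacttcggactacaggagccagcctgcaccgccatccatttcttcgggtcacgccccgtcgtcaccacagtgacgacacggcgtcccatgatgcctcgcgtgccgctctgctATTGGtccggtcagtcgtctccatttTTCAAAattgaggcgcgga

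In these windows the mitosis genes held CCAAT in 18 of 20 (90%) and TTTGAA in 14 of 20 (70%), whereas replication genes held them in 12 of 21 (57.1%) and 2 of 21 (9.52%). Of the 27025 promoters in the table, 37.9% held CCAAT and 18.1% held TTTGAA. The form TTTAAA was in 5 mitosis genes (25%), 3 replication genes (14.3%) and 13.2% of all promoters. At least 1 of the E2F-type motifs was in 11 of 21 replication genes (52.4%), in 0 of 20 mitosis genes and in 5.14% of all promoters. Singly, TTTGGCGC was in 5 replication genes (23.8%, and 0.537% of all promoters) and TTTCCCGC in 5 (23.8%, and 1.11%). The form GCGGGAA, which includes the TTTCCCGC matches, was in 9 (42.9%, and 4.66%). Ccnb2 had 3 CCAAT boxes at -87, -54 and -21 from the start, and Cdk1 had 3 on the opposite strand at -208, -80 and -48 with TTTGAA at -71 and -15. Mcm7 and Cdc6 held GCGGGAA at -165 and -138. Tk1 held only TTTAAA, at -128, and Pola2, Lig1, Tyms and Mad2l1 held none of the 6 motifs. These matches are descriptions of letters, not of bound sites.

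In control cells, 48 of the 52 members lay above the reference RNA, against 47.4% of all 17971 features (the named genes, probes averaged, and the probes without a single name). The ratio compares a gene with the same gene in the reference and does not rank genes by abundance. The median was 0.87 for replication members (from -0.40 to 1.90) and 1.05 for mitosis members (from -0.080 to 1.93), and -0.031 over all features. By role, origin licensing and helicase genes had a median of 1.26, replication fork genes 0.76 and nucleotide enzymes 0.79. Mitotic entry genes had a median of 0.93, checkpoint and anaphase genes 1.09, spindle and cytokinesis genes 1.12, and mitotic chromosome genes 0.92. The highest were Cdk1, the mitotic kinase (1.93 ± 0.34, SD, n = 3), Cdc6, the helicase loader (1.90 ± 0.23), Kif20a, a cytokinesis kinesin (1.82 ± 0.10), and Pcna, the sliding clamp (1.70 ± 0.49). The lowest were Pold1, the catalytic subunit of polymerase delta (-0.40 ± 0.064), Rfc3, a clamp loader subunit (-0.15 ± 0.054), Ccne1, which encodes cyclin E (-0.099 ± 0.15), and Plk1, the Polo-like kinase (-0.080 ± 0.093). Of 51 neighbouring pairs in the order, 49 differed by no more than the larger of their SDs, and the widest gap was 0.25.

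**Figure D1:**
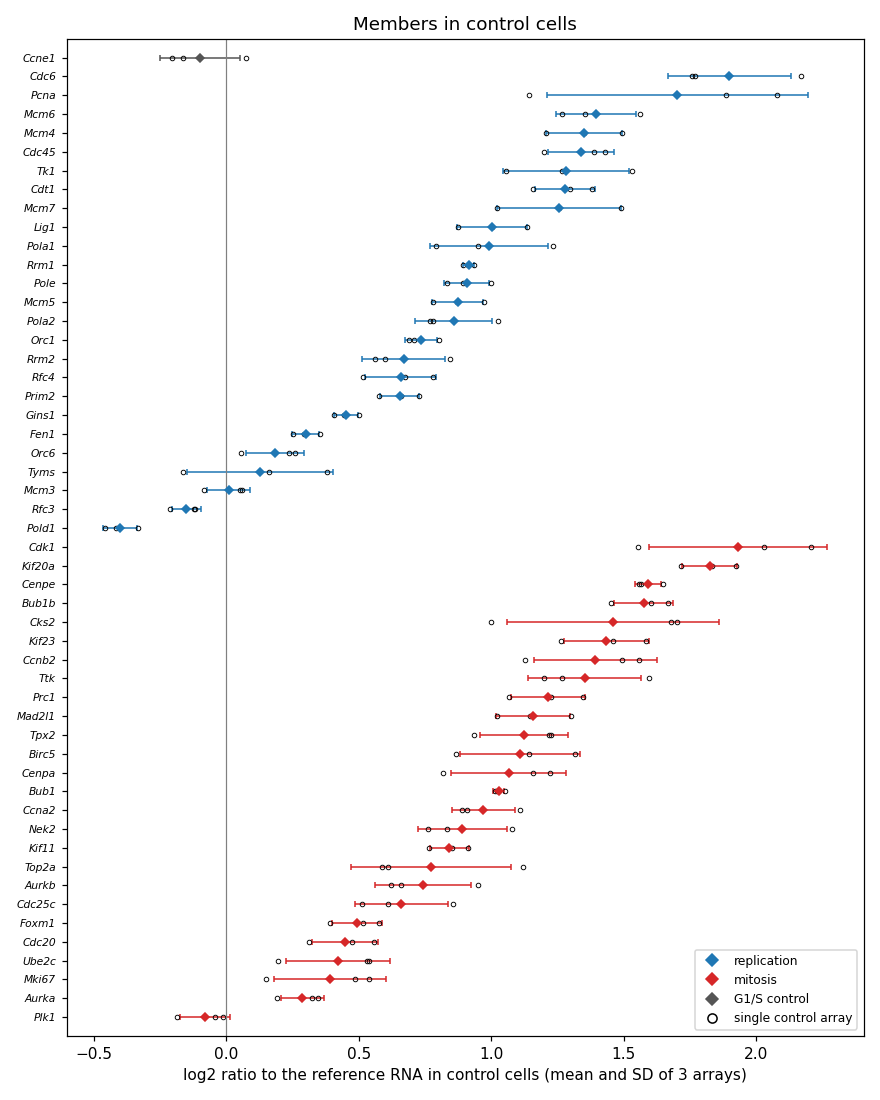
Each row is a member; the horizontal axis gives its log2 ratio to the reference RNA in mock-treated cells, with the mean and SD (diamond and bar) of 3 arrays and each array as an open circle. Of the 52 members, 48 lie right of 0, with Cdk1 and Cdc6 at the top of their sets and Pold1, Rfc3, Ccne1 and Plk1 left of 0.

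Facts of the arrays bear on all that follows. Array medians lay between -0.044 and 0.002, SDs between 0.607 and 0.688, and correlations between arrays between 0.877 and 0.98. Of the 16 endothelial markers listed, 7 were measured, and none lay above the reference in control cells (median -0.87, from -1.62 to -0.010), which shows no absolute level. Fibroblast and mesenchymal markers (7 of 12 measured) had a control median of 0.23, blood cell markers (4 of 10) -0.70 and epithelial markers (7 of 8) -0.98. The per-array mean of the fibroblast markers ran from 0.072 to 0.42 in control, -0.20 to 0.26 at 4 h, -0.12 to 0.26 at 12 h and 0.029 to 0.35 at 24 h. Of these markers, Prrx1 fell at 4 h (-0.49, SE 0.085, adjusted p = 0.0171) and at 12 h (-0.50, SE 0.085, adjusted p = 0.0429), and Cdh11 fell at 4 h (-0.45, SE 0.099, adjusted p = 0.0498). Without the block the adjusted p-values were 0.329, 0.882 and 1. The call of Cdh11 was also lost with each array centred on its median (adjusted p = 0.0518), under quantile normalization (0.0844) and in 11 of 12 fits without 1 array, all but that without the 4 h array of replicate 1. The call of Prrx1 at 12 h was lost under quantile normalization (0.0538) and in 10 of these 12 fits, all but those without the control or the 12 h array of replicate 3, and its call at 4 h in 3, those without the control array of replicate 2 or the 4 h array of replicate 2 or 3. Their part in the members' values was not tested.

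No member passed the test in any comparison. The test was limma with the replicate number as a block, at a Benjamini-Hochberg adjusted p under 0.05 over all 17971 features. It called 0 of 52 members at 4 h, where 2.37% of all features passed, 0 at 12 h (0.523%), 0 at 24 h (0.0223%), 0 for 12 h against 4 h (0.0835%), 0 for 24 h against 4 h (1.9%) and 0 for 24 h against 12 h (0%). The F test over the 3 times against control called 0 members against 1.53% of features. At an unadjusted p under 0.05 the F test took 16 members (5 replication, 11 mitosis; 14.7% of features), of which the lowest adjusted p was that of Tk1 (0.108). Without the block 0 members passed as well, in a fit that called 0.0668% of features at 4 h, 0.039% for 24 h against 4 h and 0% in each other comparison. At an unadjusted p under 0.05 that fit took 3 members at 4 h (5.29% of features), 4 at 12 h (3.21%) and 0 at 24 h (2.03%), and the methods' t-test took 0 (4.27%), 2 (2.89%) and 0 (1.9%). For 12 h against 4 h it took 7 members without the block (2.95% of features) and 2 by the methods' t-test (3.83%), for 24 h against 4 h 5 (5.45%) and 1 (5.6%), and for 24 h against 12 h 1 (1.57%) and 1 (2.31%). The 95% interval of the change lay within 1.5-fold either way for 50 of 52 members at 4 h and for all 52 at 12 h and at 24 h. The median SE of a member's change was 0.074 (from 0.047 to 0.14), and the smallest change called at 4 h among all features was 0.22.

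At 4 h of BMP6 most members lay below control. The change was below 0 for 42 of 52 members (46.6% of all features): 24 of 26 mitosis genes, with a median of -0.12, and 18 of 25 replication genes, with a median of -0.042, beside 0.008 over all features. Of 12 members with an unadjusted p under 0.05, all were lower (8.57% of features were lower at that level), 6 in each set. The pairs of arrays differed: the median mitosis gene changed by 0.014 in replicate 1, -0.11 in replicate 2 and -0.21 in replicate 3, and the median replication gene by 0.071, -0.046 and -0.23. The difference between the sets was not tested. Lower in every pair were 12 members (15.7% of features): Tk1, Pola1, Pola2 and Rfc4 of replication, and Ccnb2, Cdc25c, Plk1, Bub1, Bub1b, Kif11, Kif20a and Cks2 of mitosis.

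**Figure D2:**
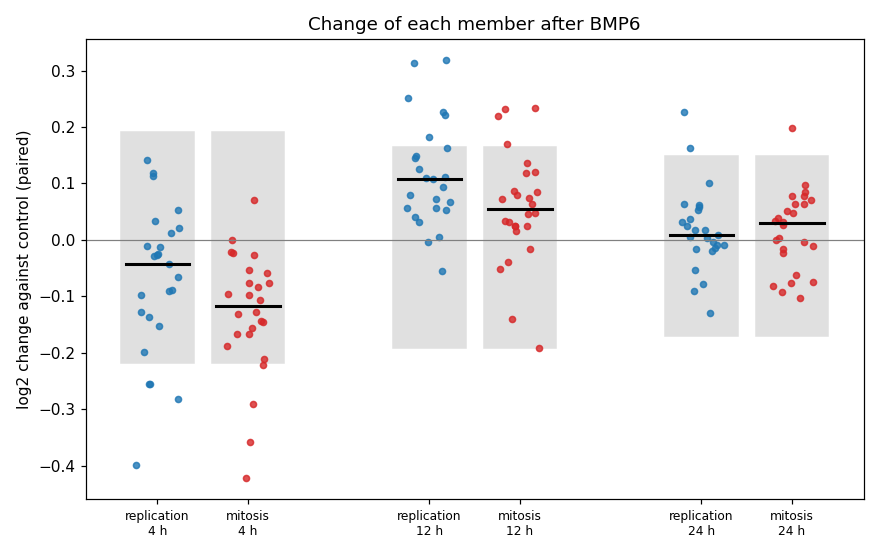
Points are members, by set and time; the vertical axis is the log2 change against control, averaged over the 3 pairs of arrays, black bars are set medians and grey boxes run from the 5th to the 95th percentile of all features (-0.22 to 0.19 at 4 h, -0.19 to 0.16 at 12 h, -0.17 to 0.15 at 24 h). At 4 h, 24 of 26 mitosis and 18 of 25 replication members lie below 0. At 12 h, 21 of 26 mitosis and 23 of 25 replication members lie above 0, and both sets straddle 0 at 24 h.

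Among the nucleotide enzymes, thymidine kinase Tk1 had the replication set's lowest change against control at 4 h. It read 1.26, 1.05 and 1.53 in control, 1.25, 0.59 and 0.81 at 4 h, 1.55, 1.20 and 1.48 at 12 h and 1.34, 1.19 and 1.41 at 24 h. Replicates 2 and 3 were low at 4 h while replicate 1 stayed within the control range. The change at 4 h was -0.40 (0.759-fold, SE 0.11, adjusted p = 0.103). Rrm2, the small subunit of ribonucleotide reductase, read 0.60, 0.56 and 0.85 in control, 0.86, 0.74 and 0.77 at 4 h, 0.92, 1.02 and 1.02 at 12 h and 0.72, 0.84 and 0.94 at 24 h. Its 12 h arrays lay above every control array, by 0.32 on average (1.25-fold, SE 0.073, adjusted p = 0.115). Rrm1, the large subunit, changed by 0.053 at 12 h and Tyms, thymidylate synthase, by -0.004.

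At the replication fork, 7 of 10 members were below control at 4 h and all 10 above it at 12 h, with role medians of -0.094 and 0.070. Pola2, the accessory subunit of polymerase alpha, read 0.78, 0.77 and 1.03 in control, 0.76, 0.49 and 0.56 at 4 h, 0.96, 0.75 and 0.88 at 12 h and 0.81, 0.73 and 0.64 at 24 h. All 4 h arrays lay below all control arrays, though replicate 1 did so narrowly, and the change was -0.26 (SE 0.083, adjusted p = 0.162). Lig1, the ligase that joins Okazaki fragments, read 1.002, 0.87 and 1.13 in control, 1.04, 0.67 and 0.70 at 4 h, 1.16, 0.91 and 1.14 at 12 h and 0.999, 0.95 and 1.11 at 24 h. Again only replicates 2 and 3 were low at 4 h (-0.20, SE 0.084, adjusted p = 0.286). Fen1, the flap endonuclease, moved otherwise: 0.25, 0.29 and 0.35 in control, 0.44, 0.49 and 0.31 at 4 h, 0.53, 0.61 and 0.44 at 12 h and 0.29, 0.57 and 0.22 at 24 h. Its 12 h arrays did not overlap the control arrays (0.23 higher, SE 0.071, adjusted p = 0.251).

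Pcna read 1.89, 1.14 and 2.08 in control, 2.11, 1.32 and 1.59 at 4 h, 2.15, 1.59 and 2.03 at 12 h and 2.07, 1.39 and 1.72 at 24 h. Replicate 2 was the lowest array of every group, and the groups overlapped throughout. Pold1 and Rfc3, the members furthest below the reference, stayed low: Pold1 read -0.46, -0.41 and -0.33 in control, -0.43, -0.41 and -0.34 at 4 h, -0.34, -0.36 and -0.17 at 12 h and -0.41, -0.40 and -0.21 at 24 h. Rfc3 read -0.12, -0.21 and -0.12 in control, -0.081, -0.11 and -0.16 at 4 h, 0.084, -0.097 and 0.009 at 12 h and -0.069, -0.12 and -0.098 at 24 h. The 12 h arrays of Rfc3 lay above its control arrays by 0.15 (SE 0.050, adjusted p = 0.279), and those of Pold1 by 0.11 on average, with overlap (adjusted p = 0.397).

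Among origin licensing and helicase genes, 8 of 11 were below control at 4 h (median -0.027) and 10 of 11 above it at 12 h (median 0.11). Cdc6 read 1.77, 1.76 and 2.17 in control, 2.21, 1.91 and 1.99 at 4 h, 2.24, 2.16 and 2.24 at 12 h and 1.85, 1.78 and 2.03 at 24 h. Its 12 h arrays lay above every 24 h array and, in each pair, above control (0.31, SE 0.095, adjusted p = 0.232). The MCM helicase subunits, chosen for mention after their values were seen, had 4 h values of -0.28 (Mcm6), -0.26 (Mcm7), -0.13 (Mcm5), -0.066 (Mcm4) and -0.025 (Mcm3) against control on average. Each of these 5 was above control in replicate 1 and below it in replicates 2 and 3, and differences between subunits were not tested.

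In mitotic entry, 7 of 8 members were below control at 4 h, with a role median of -0.11. Ccnb2, which encodes cyclin B2, read 1.49, 1.13 and 1.56 in control, 1.40, 0.73 and 0.97 at 4 h, 1.48, 0.85 and 1.27 at 12 h and 1.45, 1.04 and 1.40 at 24 h. The 4 h array was the lowest of its replicate number in all 3 numbers. Its change at 4 h, -0.36 (0.78-fold, SE 0.084), had the smallest adjusted p of any member, 0.0601, and 1 without the block. Cks2, a small protein that binds cyclin-dependent kinases, read 1.70, 0.999 and 1.68 in control, 1.66, 0.92 and 1.14 at 4 h, 2.04, 1.18 and 1.57 at 12 h and 1.84, 1.10 and 1.60 at 24 h, so that replicate 2 was lowest in every group.

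Cdk1 read 2.03, 1.55 and 2.21 in control, 2.15, 1.51 and 1.73 at 4 h, 2.45, 1.86 and 2.18 at 12 h and 2.19, 1.75 and 1.94 at 24 h. The 4 h change was -0.13 (SE 0.099, adjusted p = 0.599), positive in replicate 1 and negative in the others. Plk1 read -0.042, -0.011 and -0.19 in control, -0.043, -0.12 and -0.24 at 4 h, -0.023, -0.17 and -0.17 at 12 h and -0.14, -0.17 and -0.15 at 24 h. These values stayed near the reference and overlapped between all groups.

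All 6 checkpoint and anaphase genes were below control at 4 h (median -0.12). The lowest was Bub1b, which encodes BUBR1, at -0.29 (SE 0.081, adjusted p = 0.104), and the others ran from -0.19 for the kinase Ttk to -0.023 for the anaphase activator Cdc20. Of the spindle and cytokinesis genes, 7 of 8 were below control (median -0.10). Kif20a had the lowest 4 h change against control of all members. It read 1.83, 1.72 and 1.92 in control, 1.73, 1.09 and 1.39 at 4 h, 1.89, 1.57 and 1.59 at 12 h and 1.86, 1.78 and 1.59 at 24 h. The 4 h arrays of replicates 2 and 3 lay under all control arrays, and the change was -0.42 (0.746-fold, SE 0.11, adjusted p = 0.084, and 0.661 without the block).

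Kif11, the kinesin that separates spindle poles, read 0.91, 0.76 and 0.85 in control, 0.86, 0.54 and 0.62 at 4 h, 0.99, 0.82 and 0.97 at 12 h and 0.98, 0.90 and 0.88 at 24 h. In each replicate number its 4 h array lay below control and its 12 h and 24 h arrays above it. Birc5, which encodes survivin of the chromosomal passenger complex, read 1.14, 0.86 and 1.32 in control, 1.28, 0.73 and 0.84 at 4 h, 1.53, 1.14 and 1.31 at 12 h and 1.45, 1.16 and 1.31 at 24 h. Replicate 1 did not dip at 4 h. The kinase Aurka read 0.34, 0.19 and 0.32 in control, 0.45, 0.099 and 0.25 at 4 h, 0.42, 0.35 and 0.28 at 12 h and 0.40, 0.35 and 0.30 at 24 h, with no group apart from the others. Among chromosome genes, Top2a, the topoisomerase that untangles sister DNA, read 0.61, 0.59 and 1.12 in control, 0.63, 0.71 and 0.90 at 4 h, 0.88, 0.92 and 1.21 at 12 h and 0.74, 0.67 and 0.92 at 24 h; its 12 h array was the highest of each replicate number.

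**Figure D3:**
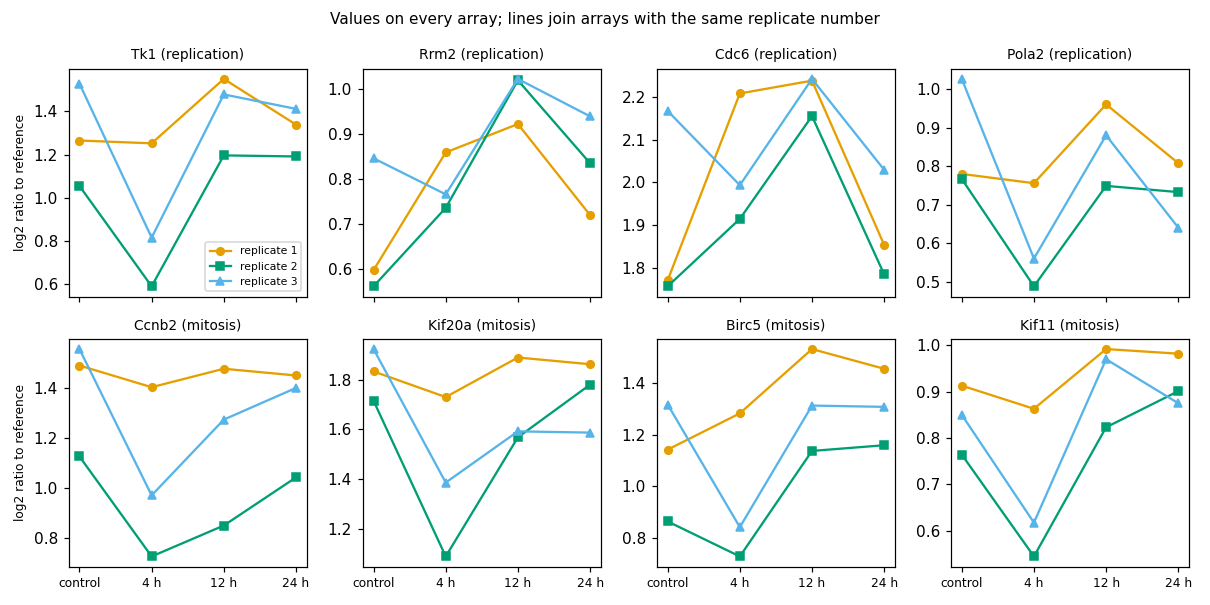
For 8 members, each panel gives the log2 ratio to the reference RNA (vertical axis, scaled per panel and not from 0) in the control and at 4, 12 and 24 h; lines join arrays of 1 replicate number, and no label says that these come from 1 culture. The dip at 4 h in Tk1, Pola2, Ccnb2, Kif20a and Kif11 is carried by replicates 2 and 3, while Rrm2 and Cdc6 peak at 12 h.

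At 4 h, calls arose without the control array of replicate 1, without its 4 h array and without all of replicate 1. Leaving out any other single array, or all of replicate 2 or 3, brought none. The share of all features called in these fits is not given here. Without the replicate 1 control array, Pola2 (-0.35, adjusted p = 0.0473), Ccnb2 (-0.44, 0.0294), Bub1b (-0.37, 0.0493) and Kif20a (-0.53, 0.0441) passed as lower, and without the replicate 1 array at 4 h Tk1 (-0.56, 0.015), Ccnb2 (-0.46, 0.0247), Bub1b (-0.39, 0.027) and Kif20a (-0.53, 0.048) did. Over all leave-outs the adjusted p at 4 h rose as far as 0.446 for Ccnb2, 0.445 for Kif20a, 0.559 for Tk1 and 0.576 for Pola2. With 1 array left out, the median mitosis change at 4 h stayed between -0.18 and -0.058, and the replication median between -0.12 and -0.003. Without all arrays of replicate 3 the replication median was 0.013.

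At 12 h the members lay mostly above control. The change was above 0 for 45 of 52 members (53.8% of features): 23 of 25 replication genes, with a median of 0.11, and 21 of 26 mitosis genes, with a median of 0.055, beside 0.008 over all features. In replicates 1, 2 and 3 the median was 0.22, 0.12 and 0.001 for replication and 0.14, 0.003 and 0.007 for mitosis. Over the fits that left out 1 array or 1 replicate number these medians ran from 0.047 to 0.17 and from 0.012 to 0.10, and the difference between the sets was not tested. Higher in every pair were 16 members (15.7% of features), 11 of replication and 5 of mitosis, and 9 were higher at an unadjusted p under 0.05 (5.28% of features). The smallest adjusted p was that of Rrm2 (0.115). The extremes were Rrm2 (0.32) and Cdc6 (0.31) in replication and Cdk1 (0.23), Top2a (0.23) and Birc5 (0.22) in mitosis; Ccnb2 remained lower in each pair (-0.19, adjusted p = 0.423). Without the replicate 3 control array, Cdk1 (0.38, adjusted p = 0.046) and Top2a (0.32, 0.0492) passed as higher. That array held the highest control value of both genes (2.21 and 1.12), and the share of all features called in this fit is not given here.

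At 24 h the members had no common direction against control. The change was above 0 for 31 of 52 (53.5% of features), with medians of 0.009 for replication, -0.007 when each array was centred on its median, and 0.029 for mitosis, beside 0.007 over all features. Higher in every pair were 6 members (16.8% of features), and Rrm2 alone had an unadjusted p under 0.05 (0.16, adjusted p = 0.636; 4.03% of features were higher at that level). The largest changes were those of Orc6, an ORC subunit (0.23), and Birc5 (0.20). Ccne1, the G1/S member, read -0.16, 0.073 and -0.21 in control, -0.11, -0.032 and -0.046 at 4 h, -0.089, -0.009 and -0.088 at 12 h and -0.098, 0.037 and -0.13 at 24 h, with group means within 0.037 of control.

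Between the times, 12 h stood above 4 h in nearly every member. The difference was above 0 for 50 of 52 (50.7% of features), with medians of 0.17 for replication and 0.18 for mitosis, beside 0.002 over all features. It was above 0 in every pair for 45 members (20.4% of features), 22 of replication and 23 of mitosis, and 28 had an unadjusted p under 0.05, all higher (5.89% of features). Members read on the same arrays are not independent, here as in the other comparisons, and 3 arrays per time stand behind these counts. By role, all 10 replication fork genes, 9 of 11 origin genes and 3 of 4 nucleotide enzymes were higher in every pair. So were 6 of 8 mitotic entry genes, 6 of 6 checkpoint genes, 7 of 8 spindle genes and 4 of 4 chromosome genes. The largest differences were those of Tk1 (0.52, 1.44-fold, SE 0.11, adjusted p = 0.115, and 1 without the block), Birc5 (0.38, SE 0.094, adjusted p = 0.161), Cdk1 (0.37, SE 0.099, adjusted p = 0.205) and Cks2 (0.36, SE 0.090, adjusted p = 0.161).

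The exceptions, Mcm3 (-0.030) and Nek2, a centrosomal kinase (-0.016), lay near 0. The median difference by pair was 0.089, 0.23 and 0.23 for replication and 0.13, 0.15 and 0.26 for mitosis in replicates 1, 2 and 3. This contrast uses the same 4 h arrays as the one against control, so it is not separate evidence of the lower values at 4 h. Without the replicate 1 array at 4 h, Tk1 passed (0.68, adjusted p = 0.0164), while over all leave-outs its adjusted p rose as far as 0.765. For that fit the share of all features called is not given here.

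**Figure D4:**
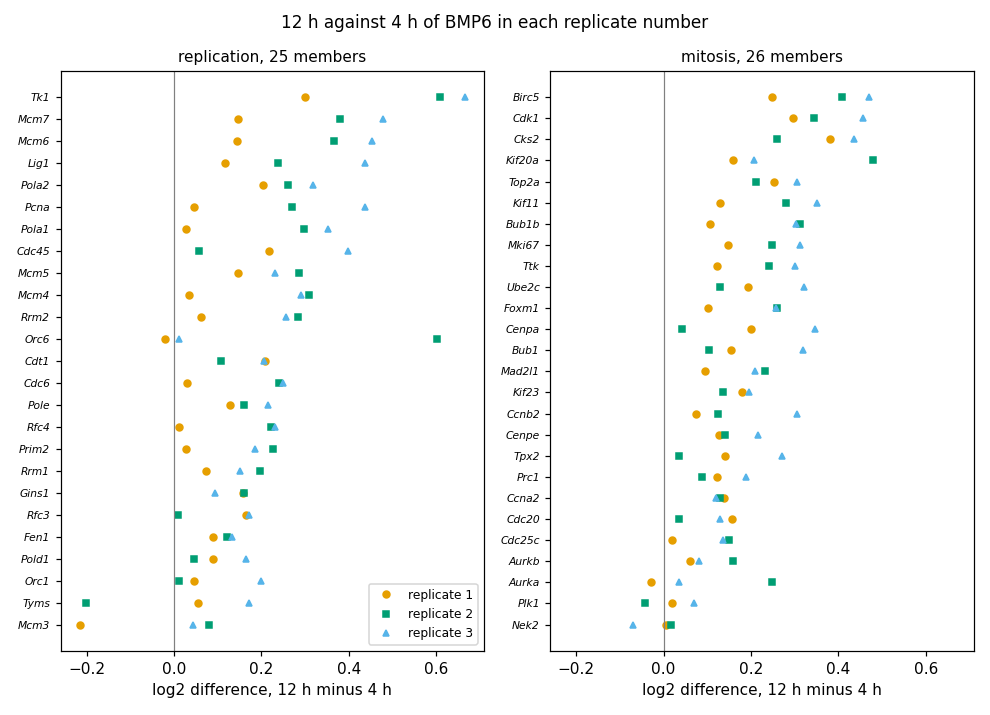
Each row is a member, ordered by its mean difference; points give the log2 difference of the 12 h array minus the 4 h array in replicates 1, 2 and 3, with replication genes left and mitosis genes right. In 22 of 25 replication and 23 of 26 mitosis members all 3 points lie right of 0, and replicate 1 often has the smallest difference.

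At 24 h against 4 h, 45 of 52 members were higher (52.9% of features), with medians of 0.078 for replication and 0.14 for mitosis and 0.007 over all features. In replicates 1, 2 and 3 the median was -0.038, 0.20 and 0.10 for replication and 0.031, 0.24 and 0.15 for mitosis, so the typical replication gene was not higher in replicate 1. The replication median ran from 0.048 to 0.14 over the fits that left out 1 array or 1 replicate number. Higher in every pair were 22 members (19.3% of features), 15 of them of mitosis, and 15 were higher at an unadjusted p under 0.05 (7.53% of features), 12 of them of mitosis. Kif11 had the smallest adjusted p (0.25, SE 0.058, adjusted p = 0.0708, and 0.724 without the block), followed by Tk1 (0.43, SE 0.11, adjusted p = 0.0958) and Birc5 (0.36, SE 0.094, adjusted p = 0.103). Without the replicate 1 array at 4 h these passed, at adjusted p-values of 0.0363, 0.0152 and 0.0436, and Birc5 passed without the replicate 3 control array (0.0317). For these fits the share of all features called is not given here.

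From 12 to 24 h, 41 of 52 members were lower (48.7% of features). The median was -0.095 for replication genes, of which 15 were lower in every pair, and -0.031 for mitosis genes, of which 4 were; over all features 16.1% were lower in every pair. Quantile normalization gave a mitosis median of 0.002. At an unadjusted p under 0.05, 4 members were lower (3% of features); Cdc6 (-0.32, SE 0.095, adjusted p = 0.56) and Top2a (-0.23, SE 0.069, adjusted p = 0.595) had the smallest p-values of their sets.

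Members also varied by replicate number. The number held a median of 62.3% of a mitosis gene's sum of squares over the 12 arrays and the group 19.7%. For replication genes the number held 28.9% and the group 34.9%, and over all features these were 51.2% and 17%. These shares are not adjusted for there being more groups than replicate numbers, so a number's share and a group's share are not on the same footing. Replicate 1 had the highest mean in 23 of 26 mitosis genes and 16 of 25 replication genes, against 31.6% of all features. No label says what arrays of the same number share.

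Of the 11 members with several probes, 9 had probes that agreed in the sign of the 4 h change; those of Bub1 ran from -0.27 to 0.075 and those of Top2a from -0.12 to 0.070. For 12 h against 4 h only Bub1 had probes of both signs (-0.060 to 0.34). Bub1's probes differed in level by 2.15, from -0.29 to 1.86, and those of Prim2, Orc1 and Mad2l1 by 1.44, 1.37 and 1.3.

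Other genes of the pathway were read from lists of the same kind, written with earlier results of these data known. Of 28 other replication genes measured (45 listed), 0 passed at 4, 12 or 24 h or between times (1, 5 and 0 had an unadjusted p under 0.05 against control, beside 15.4%, 11.4% and 7.82% of features); 20 were higher at 12 h than at 4 h in every pair (20.4% of features), with a median of 0.15. Of 62 other mitosis genes (76 listed), 2 fell at 4 h, where 2.37% of all features passed: Kif22, a chromosome-arm kinesin (-0.38, SE 0.075, adjusted p = 0.0288), and Stmn1, which encodes the microtubule destabilizer stathmin (-0.41, SE 0.079, adjusted p = 0.0274). Kif22 read 1.41, 1.41 and 1.42 in control and 1.26, 0.94 and 0.88 at 4 h, without overlap. The median of these 62 was -0.097 at 4 h, where 23 were lower and 2 higher at an unadjusted p under 0.05 (8.57% and 6.83% of features). In fits without 1 array the call of Kif22 was lost in 7 of 12 (those without the control or 4 h array of replicate 2 or 3, the 12 h array of replicate 2 or 3 or the 24 h array of replicate 3) and that of Stmn1 in 5 (those without the control array of replicate 2 or any array of replicate 3), and Stmn1 did not pass under quantile normalization (adjusted p = 0.0559).

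Among 25 other G1/S regulators (28 listed), 3 passed at 4 h (2.37% of features) and 0 at 12 and 24 h, where 5 and 1 had an unadjusted p under 0.05 (11.4% and 7.82% of features). Rbl2, which encodes the pocket protein p130 of quiescent cells, fell (-0.67, SE 0.079, adjusted p = 0.00363), and it read -0.42, -0.60 and -0.20 in control and -0.87, -1.27 and -1.10 at 4 h, without overlap. Myc, a growth-promoting transcription factor, rose (0.32, SE 0.051, adjusted p = 0.0132), as did Cdk6, a G1 kinase (0.27, SE 0.059, adjusted p = 0.046). The call of Cdk6 was lost with each array centred on its median (adjusted p = 0.0514), under quantile normalization (0.059), with the probe of the highest mean (0.0582) and in 11 of 12 fits without 1 array, all but that without the 4 h array of replicate 1. The call of Myc was lost in 3 of these fits, those without the control array of replicate 2 or the 4 h array of replicate 2 or 3. Myc read 0.46, 0.35 and 0.28 in control and 0.74, 0.74 and 0.57 at 4 h.

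Of 13 kinase inhibitors and arrest genes (22 listed), 3 passed at 4 h (2.37% of features). Gas1, a growth arrest gene, fell (-0.57, SE 0.062, adjusted p = 0.00306), and so did Sesn1, a stress-induced sestrin (-0.60, SE 0.076, adjusted p = 0.00568), while Plk2, a Polo-like kinase of G1, rose (0.36, SE 0.059, adjusted p = 0.0139). Gas1 also fell at 12 h (-0.61, adjusted p = 0.00658) and at 24 h (-0.56, adjusted p = 0.0285), and it was the only gene of these 4 lists to pass there. The 24 h call was lost under quantile normalization (adjusted p = 0.0681) and in 8 of 12 fits without 1 array, all but those without a 4 h array or the 12 h array of replicate 1, and the 12 h call in 1, without the 12 h array of replicate 2. The call of Plk2 was lost in 3 of these fits, the same as for Myc. Gas1 read 0.34, -0.66 and -0.20 in control and -0.38, -1.07 and -0.77 at 4 h, so the groups overlapped while each pair fell. Without the block 0 genes of these 4 lists passed at any time, with adjusted p-values of 0.232 for Rbl2 and Sesn1, 0.488 for Myc, 0.362 for Cdk6, 0.225 for Plk2, 0.377 for Kif22, 0.907 for Stmn1 and 1 for Gas1.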

How the data were processed

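Gene expression was measured on 12 two-colour oligonucleotide arrays, 3 for each of 4 groups, grouped by title. Per the labels, arrays were scanned with GenePix, the authors normalized them by a modified quantiles algorithm, and the deposited values are log ratios, read here as log2 of cells (Cy5) over reference (Cy3). Spot intensities were not used here; with 3 arrays per group, precision is limited by that number.

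The value rows were matched to platform probes by a recovered grid order (215 by 105 positions): 2 probes of a gene then correlated at r = 0.471 over 1831 genes, against 0.021 in the deposited order. The order was found from that agreement in earlier work on these data, and every gene name rests on it. Of 20280 rows, 10576 had 1 symbol and 507 several; probes of a gene were averaged and the other 9704 rows kept, giving 17971 features.

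limma 3.58.1 in R 4.3.3 (lmFit, eBayes, two-sided) fitted all 12 arrays with the replicate number as a block, with Benjamini-Hochberg adjustment over all features. The fit was tested on simulated data whose 4 h changes were all larger than any member's change at 4 h. Recovery of changes as small as the members' was therefore not tested. The methods' t-test was unpaired, per the labels. Arrays were paired by the numbers in their titles. Deviations from group means correlated from 0.445 to 0.685 within a number (18 pairs of arrays) and from -0.566 to 0.064 between numbers (36). Because deviations cancel within a group, low values between numbers follow in part from high values within a number. The 3 times were each compared with 1 set of controls. Replicates are independent biological ones, per the labels.

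Members and lists were chosen with earlier results of these data known. Values per array are given for the 6 members of each set with the smallest F test p, the highest and lowest 2 of each set in control, and Ccne1. Alternatives tried were no block, median centring, quantile normalization, the probe with the highest mean, adjustment over named genes, and leaving out arrays. No gene coordinates of the array are given, because its build is not given in the sources used here.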

Additional observations from a re-analysis of the deposited data

Results flagged for a closer look

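Kif11 and Pola1 lay below control at 4 h and above it at 12 h in all 3 replicate numbers. How many of all features share this pattern is not given here. Some of Pola1's changes were near 0: -0.017 at 4 h in replicate 1, and 0.011 and 0.014 at 12 h in replicates 1 and 3. The difference between those times was 0.254 for Kif11 (SE 0.058, limma adjusted p = 0.134) and 0.226 for Pola1 (SE 0.074, adjusted p = 0.298), so neither passed. Kif11 lay on opposite sides in the same way at 4 and 24 h, with a difference of 0.245 (SE 0.058, adjusted p = 0.0708).

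Of the 62 other mitosis genes, 1 that had not passed against control was higher at 24 h than at 4 h (1.9% of all features passed). Among genes of the other lists that had passed against control, 6 also passed by the test of the difference between 4 and 24 h. Higher at 24 h were Rbl2 (0.514, SE 0.079, adjusted p = 0.0202), Sesn1 (0.442, SE 0.076, adjusted p = 0.0254) and Cdh11 (0.618, SE 0.099, adjusted p = 0.0213). Lower at 24 h were Myc (-0.322, SE 0.051, adjusted p = 0.0213), Cdk6 (-0.281, SE 0.059, adjusted p = 0.0459) and Plk2 (-0.426, SE 0.059, adjusted p = 0.014). Without the replicate block none of these 6 passed, with adjusted p-values of 0.566 for Rbl2 and Myc, 0.596 for Sesn1, 0.682 for Cdh11, 0.43 for Cdk6 and 0.18 for Plk2. Each had moved the other way at 4 h against control, in a contrast that uses the same 4 h arrays.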

How the results depend on the processing

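The count of called members was 0 in every comparison without the replicate block and under the methods' t-test. Quantile normalization gave 1 at 4 h (Ccnb2, adjusted p = 0.0487) and 2 for 24 h against 4 h (Tk1 and Birc5), and adjustment over named genes alone gave 2 at 4 h (Ccnb2 and Kif20a), 1 for 12 h against 4 h (Tk1) and 1 for 24 h against 4 h (Kif11). Leaving out arrays gave 0 to 4 at 4 h, 0 to 2 at 12 h, 0 to 1 for 12 h against 4 h, 0 to 3 for 24 h against 4 h and 0 to 3 in the F test. For quantile normalization, named genes alone and the leave-outs, the share of all features called is not given here. The median replication level of each control array, averaged over these arrays, was 0.841, and 0.975 with the probe of the highest mean. It differs from the median of the members' control means, which was 0.874. Under quantile normalization the 4 h changes of Pold1 (-0.007) and Top2a (0.017) turned sign. Over the leave-outs, 4 h changes that crossed 0 ran from -0.083 to 0.044 for Aurka, -0.304 to 0.002 for Birc5, -0.025 to 0.106 for Ccne1, -0.008 to 0.298 for Cdc6, -0.259 to 0.041 for Cdk1, -0.155 to 0.2 for Pcna, -0.004 to 0.037 for Pold1, -0.002 to 0.074 for Rfc3 and -0.099 to 0.07 for Top2a; the 12 h against 4 h values of Plk1 ran from -0.011 to 0.05 and those of Ccne1 from -0.038 to 0.042. List counts were recomputed as an addition made after seeing the data, as was the quantile setting of control levels. Without the block all 4 lists had 0 calls. Other mitosis genes at 4 h (2) had 1 call under quantile normalization and 8 over named genes, and 0 to 8 over the leave-outs (8 without the replicate 1 array at 4 h); G1/S regulators at 4 h (3) ran from 0 to 3, inhibitors and arrest genes at 4 h (3) from 0 to 3. At 12 h, inhibitors and arrest genes (1) had 2 over named genes and 0 to 1 over leave-outs, and G1/S regulators and other mitosis genes (0) had 0 to 1; at 24 h inhibitors and arrest genes (1) had 0 under quantile normalization and 0 to 1 over leave-outs. The cause of these moves was not tested.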
